A study of Caenorhabditis elegans with 8 samples.

Results

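The libraries described here compare a hizr-1 mutant of Caenorhabditis elegans with the wild type under basal conditions, without cadmium. They were chosen by their labels as all libraries of the mutant carrying allele am286 and of N2 that were cultured with 0 mM cadmium chloride, and they make up 4 of the 8 libraries of the series. The mutant group held 2 libraries of hizr-1 loss-of-function animals (allele am286, strain given as an N2 derivative), and the wild-type group held 2 libraries of N2. The other 4 libraries are the same 2 strains after cadmium chloride, which the labels give as 100 mM. That unit could not be checked here. Plates were started with L4 hermaphrodites and grown for 4 days at 20 °C, and the resulting mixed-stage animals spent 16 to 18 h on a noble agar minimal medium seeded with dense E. coli OP50. Each library was RNA of whole animals pooled from 10 plates. Per the labels the plates of both strains were grown in parallel, and nothing says that the libraries of a group came from separate cultures, so p-values measure only the spread between these libraries, which may be technical. The strains are 1 mutant line and 1 wild-type line, and the molecular lesion of am286 and its history of outcrossing are not given in the sources used here.

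HIZR-1 is a nuclear receptor of intestinal cells that binds zinc and switches on genes of the high zinc response. Its known targets include the metallothioneins mtl-1 and mtl-2, small cysteine-rich proteins that hold metal ions, the cadmium-responsive gene cdr-1, and the zinc exporters cdf-2 and ttm-1, which move zinc into stores or out of the cell. Cadmium is a toxic metal that resembles zinc and induces several of the same genes. The comparison asks which transcripts depend on hizr-1 when no metal is added.

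Total counts were 26044429 and 17681352 in mutant libraries 1 and 2, and 29416027 and 23143603 in wild-type libraries 1 and 2. Markers of intestine, muscle, neurons and hypodermis were all present, with list medians of 7.19 to 7.35, 8.27 to 8.53, 3.85 to 4.41 and 4.75 to 5.16 log2 CPM (counts scaled to equal library size) over the 4 libraries. The libraries of 1 group stood apart from each other in short transcripts. For 1103 protein-coding genes under 500 bases, library 2 minus library 1 had a median log2 difference of -0.897 in the mutant and 0.674 in the wild type, against -0.126 in the mutant and -0.021 in the wild type with cadmium. For 3464 genes of 2000 bases or more, the same difference was 0.212 in the mutant and -0.16 in the wild type. Mutant library 2 and wild-type library 1 were thus lower in short genes than the other library of the same group, and the list medians of ribosomal protein, histone and major sperm protein genes lay in the same order. The part of this difference in the results was not tested, beyond leaving out each library.

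The mutated gene itself was read at a low level. hizr-1 (WBGene00013976, chromosome X, 11318278 to 11321076, plus strand, 13 exon blocks) had 18 and 7 counts in the mutant, against 57 and 52 counts in the wild type. These are 0.703 and 0.382 CPM in the mutant and 2.03 and 2.47 CPM in the wild type, so the groups did not overlap. The log2 change was -1.99 ± 0.377 (95% interval for the single gene -2.81 to -1.17), and its adjusted p of 0.0931 by edgeR's quasi-likelihood test missed the threshold of 0.05. It was past the threshold with DESeq2, without a filter on low counts, with a covariate for sperm genes, and with either wild-type library without cadmium left out. The counts cover the whole transcript and do not show the am286 lesion.

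In the hizr-1 mutant without cadmium, 14 genes rose and 6 fell against the wild type. The genes that rose included 3 of detoxification, the cytochrome P450 gene cyp-29A2, the glutathione S-transferase gene gst-24 and the ABC transporter gene pgp-8, together with the neighbouring pud-3 and pud-4. The genes that fell included the metallothionein gene mtl-2 and the adjacent cth-1 and argk-1, which encode an enzyme of cysteine synthesis and an arginine kinase. Of the high zinc response genes, mtl-2 was the only one to pass. The test was edgeR's quasi-likelihood test over 15818 genes, fitted on all 8 libraries, with an adjusted p under 0.05 as the threshold. The 20 genes are 0.126% of those tested, the 14 that rose 0.0885% and the 6 that fell 0.0379%. Over all tested genes the median log2 change, mutant over wild type, was -0.02. In each of the 20 genes both mutant libraries lay on the same side of both wild-type libraries, which also holds for 38.5% of all tested genes. When the 4 libraries without cadmium were fitted alone, edgeR's quasi-likelihood test called 0 of 15134 genes (lowest adjusted p = 0.137), and 1458 genes, all 20 among them, had an unadjusted p under 0.05. The calls therefore rest on the spread estimated over all 4 groups. DESeq2 on the same 8 libraries called 79 higher and 18 lower, the 20 included.

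**Figure D1:**
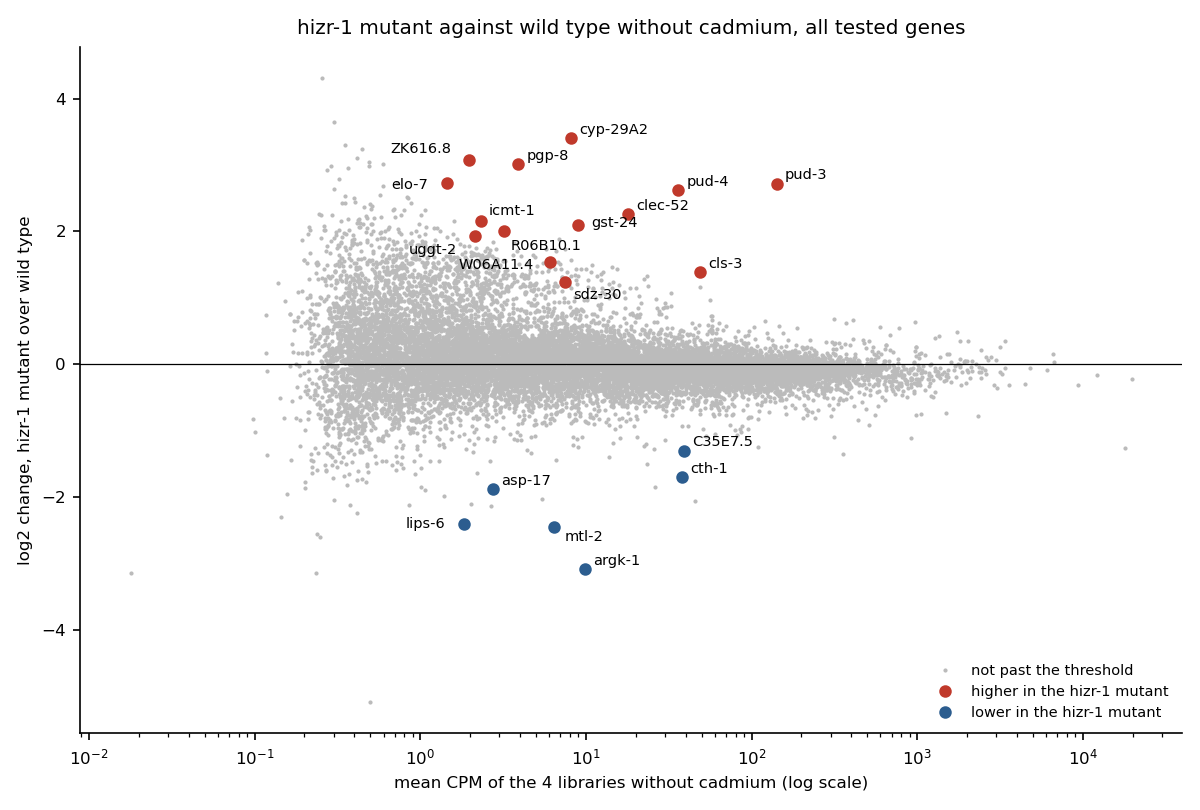
Log2 change of each tested gene in the hizr-1 mutant over the wild type without cadmium (vertical axis) against its mean CPM in the 4 libraries (horizontal axis, log scale). Red points are the 14 genes that rose and blue points the 6 that fell. The median of the 15818 genes tested was -0.02. Some genes that did not pass had a larger log2 change at a similar level, such as clec-123 (1.51) beside sdz-30 (1.24).

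Among genes of detoxification, cyp-29A2 showed the largest log2 change of the 20. Cytochrome P450 enzymes oxidise lipids and foreign compounds. The gene (WBGene00011830, chromosome V, 11217583 to 11219904, plus strand) measured 13.5 and 16.3 CPM in the mutant, against 1.64 and 1.14 CPM in the wild type. Its log2 change was 3.40 ± 0.268 (SE, adjusted p = 0.000152), a 10.6-fold difference in level. pgp-8, a P-glycoprotein of the ABC transporters that pump compounds out of cells (WBGene00004002, chromosome X, 10859351 to 10864422, minus strand), measured 6.21 and 7.65 CPM in the mutant and 0.891 and 0.806 CPM in the wild type. Its log2 change was 3.01 ± 0.289 (adjusted p = 0.000945). For gst-24, which conjugates glutathione to reactive compounds (WBGene00001772, chromosome II, 13610443 to 13611342, minus strand), the values were 16.2 and 13 CPM in the mutant and 3.21 and 3.65 CPM in the wild type. The log2 change was 2.09 ± 0.230 (adjusted p = 0.00216). In all 3 genes the lowest mutant library was well above the highest wild-type library.

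Each of these genes was the sole member of its family past the threshold, and its nearest tested neighbours did not pass. Of 64 cytochrome P450 genes tested, 1 rose and 0 fell. At an unadjusted p under 0.05, 10 P450 genes were higher and 2 lower, which is 15.6% of the family higher, beside 7.20% of all tested genes higher and 3.58% lower. The median log2 change of the P450 family was 0.22, and with cadmium it was -0.28. Of 41 glutathione S-transferase genes 1 rose, 4 were higher at an unadjusted p under 0.05 and 0 lower, and the median was 0.08. Of 46 ABC transporter genes 1 rose, 7 were higher unadjusted and 0 lower, and the median was 0.13. pgp-5, 58 bases from pgp-8, had a log2 change of 0.09, and pgp-6, on the other side, 0.13. The glutathione S-transferase genes that flank gst-24, gst-20 and gst-15, had log2 changes of 0.22 and 0.46.

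The pud genes were first described as encoding proteins that are raised in mutants of the insulin receptor DAF-2, and their molecular function is not known. pud-3 (WBGene00017501, chromosome V, 2324510 to 2326847, minus strand) had the highest level per transcript length of the 20 genes in the mutant, with a mean of 316 RPKM (CPM per kilobase) in the mutant and 47.9 RPKM in the wild type. It measured 292 and 199 CPM in the mutant and 38.9 and 35.7 CPM in the wild type, a log2 change of 2.72 ± 0.200 (adjusted p = 0.000152). pud-4 (WBGene00017498, chromosome V, 2326678 to 2327262, plus strand) measured 79.8 and 43.8 CPM in the mutant and 11.3 and 8.82 CPM in the wild type, a log2 change of 2.62 ± 0.302 (adjusted p = 0.0147). The wild-type libraries were close to each other for both genes, while mutant library 1 was above mutant library 2. The genes overlap by 169 bases on opposite strands, and no strand setting is given for the counting, so part of the reads of one may have been counted for the other. Their relatives pud-1.1, pud-1.2 and pud-2.2 had 0 or 1 counts in every library. How reads that match several copies were counted is not given, so these copies cannot be compared.

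The other 9 genes that rose have varied roles. cls-3, of the CLASP family of microtubule-binding proteins, measured 79.7 and 61.9 CPM in the mutant and 30.2 and 23.9 CPM in the wild type, a log2 change of 1.39 ± 0.176 (adjusted p = 0.00741). clec-52, a C-type lectin gene, measured 36.4 and 23.3 CPM in the mutant and 7.09 and 5.36 CPM in the wild type, a log2 change of 2.26 ± 0.283 (adjusted p = 0.0107). It was the 1 of 117 tested C-type lectin genes to pass, and the median log2 change of that family was 0.04. elo-7, a fatty acid elongase gene, measured 3.01 and 2.08 CPM in the mutant and 0.463 and 0.285 CPM in the wild type, a log2 change of 2.73 ± 0.436 (adjusted p = 0.0348). Its neighbour elo-1, also an elongase gene, had a log2 change of -0.09.

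icmt-1, which encodes an isoprenylcysteine carboxyl methyltransferase, measured 4.41 and 3.11 CPM in the mutant and 0.677 and 1.04 CPM in the wild type (log2 change 2.15, adjusted p = 0.0293). uggt-2, a homologue of the glucosyltransferase that monitors glycoprotein folding, measured 3.52 and 3.28 CPM in the mutant and 0.749 and 1.04 CPM in the wild type (log2 change 1.94, adjusted p = 0.0385). The stress gene hsp-70 lies inside the span of uggt-2 on the other strand, and the exons of the 2 genes do not overlap. sdz-30, named as a zygotic transcript dependent on SKN-1, measured 10.12 and 10.8 CPM in the mutant and 4.31 and 4.55 CPM in the wild type (log2 change 1.24, adjusted p = 0.0385). ZK616.8 measured 4.57 and 2.46 CPM in the mutant and 0.249 and 0.617 CPM in the wild type (log2 change 3.08, adjusted p = 0.0257). The remaining pair are annotated as pseudogenes. The log2 changes were 1.53 for W06A11.4 (adjusted p = 0.0263) and 2.01 for R06B10.1 (adjusted p = 0.0385), and in both the lowest mutant library was above the highest wild-type library.

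**Figure D2:**
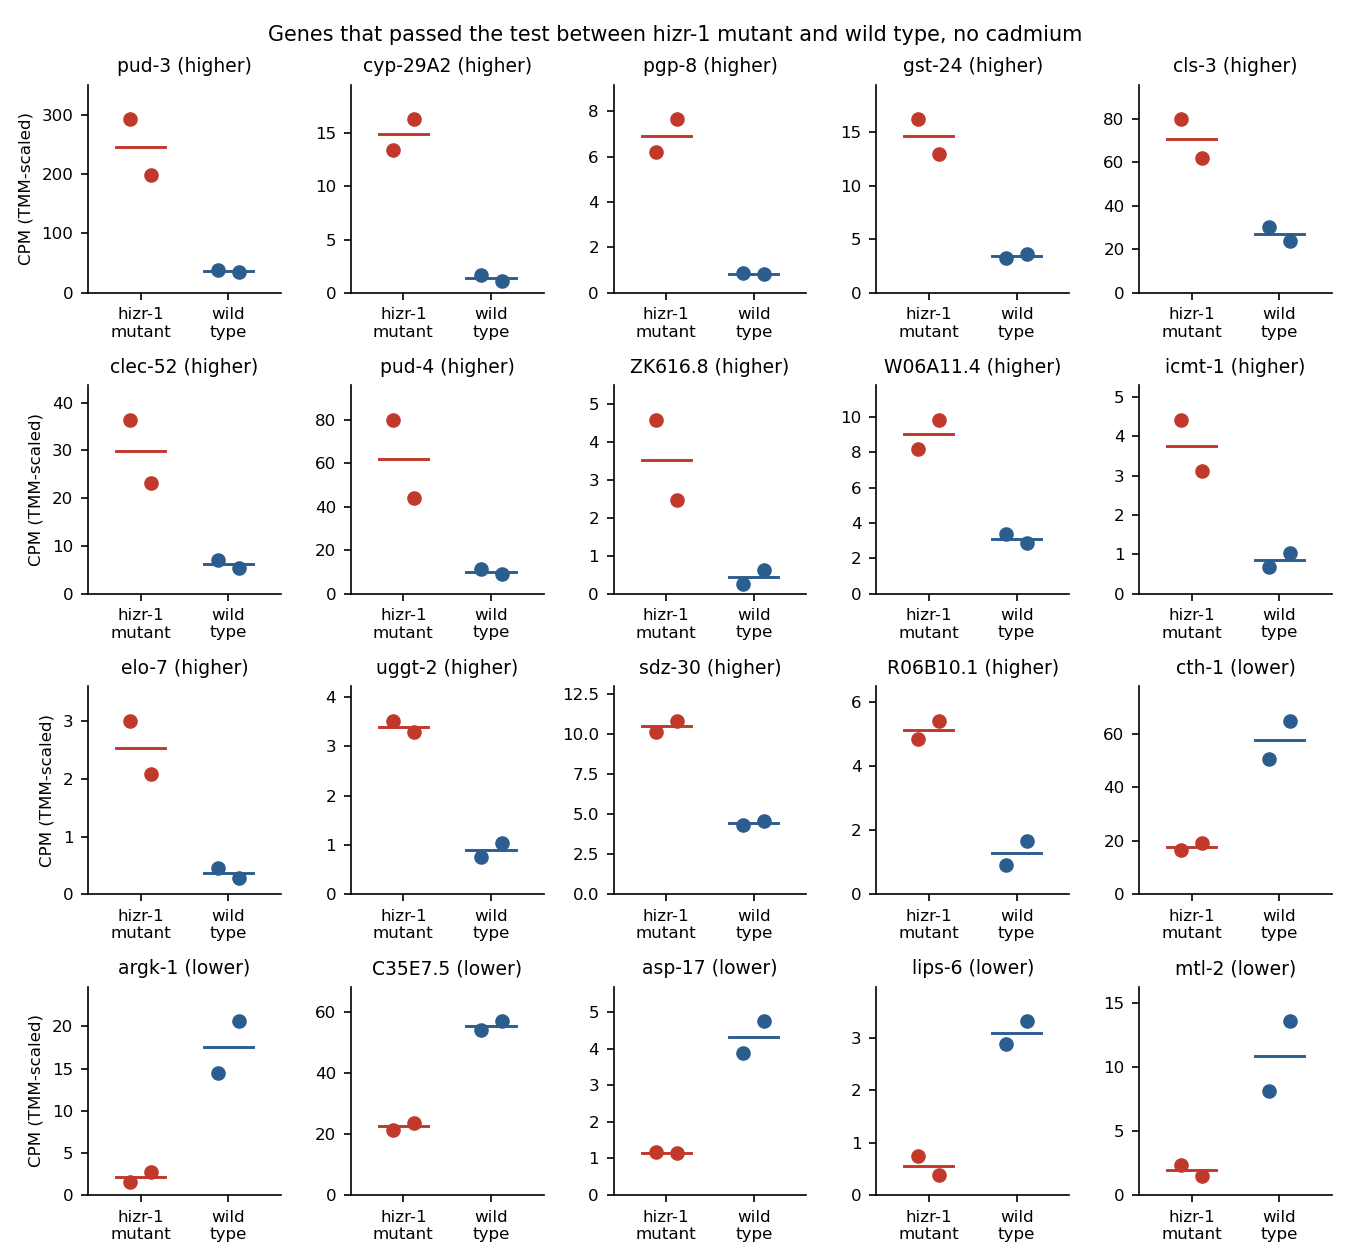
CPM of the 20 genes in each library without cadmium; points are libraries and bars group means, mutant (red) left of wild type (blue), with each vertical axis starting at 0. No panel has overlapping groups: cyp-29A2 sat at 13.5 and 16.3 CPM in the mutant and at 1.64 and 1.14 CPM in the wild type, and argk-1 at 1.52 and 2.68 CPM in the mutant and at 14.4 and 20.6 CPM in the wild type.

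Of the 6 genes that fell, cth-1 and argk-1 lie next to each other on the plus strand of chromosome V. cth-1 encodes a cystathionine gamma-lyase, which releases cysteine from cystathionine in the transsulfuration pathway, and argk-1 an arginine kinase, which buffers ATP. cth-1 (WBGene00009048, 16100655 to 16102744) measured 16.7 and 19.01 CPM in the mutant, against 50.6 and 64.8 CPM in the wild type. argk-1 (WBGene00009706, 16103894 to 16106140) measured 1.52 and 2.68 CPM in the mutant, against 14.4 and 20.6 CPM in the wild type. Both mutant libraries were far below both wild-type libraries in each gene. The log2 changes were -1.70 ± 0.179 for cth-1 and -3.08 ± 0.323 for argk-1 (adjusted p = 0.00209 for each). The genes are separated by 1150 bases. The next tested gene before cth-1, F22B8.7, had a log2 change of -0.56 (adjusted p = 0.327), and the next tested after argk-1, skr-3, one of -0.01. Of 15 tested genes of cysteine and hydrogen sulfide metabolism, cth-1 was the 1 that passed, and the median log2 change of that list was 0.02. Glutathione and phytochelatin synthesis, which uses cysteine, had 4 tested genes, 0 of which passed the adjusted or the unadjusted threshold.

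The other genes that fell were C35E7.5, asp-17, lips-6 and mtl-2. C35E7.5 measured 21.3 and 23.7 CPM in the mutant and 53.9 and 56.8 CPM in the wild type, a log2 change of -1.30 ± 0.1504 (adjusted p = 0.00313). asp-17, an aspartyl protease gene, measured 1.17 and 1.147 CPM in the mutant and 3.88 and 4.74 CPM in the wild type, a log2 change of -1.89 ± 0.263 (adjusted p = 0.0147). lips-6, a lipase-related gene, measured 0.742 and 0.382 CPM in the mutant and 2.89 and 3.32 CPM in the wild type, a log2 change of -2.40 ± 0.366 (adjusted p = 0.0263). Of 18 tested cathepsin B-like and aspartyl protease genes, asp-17 was the 1 that fell and 0 rose.

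Of the known targets, mtl-2 (WBGene00003474, chromosome V, 14018272 to 14018643, minus strand) measured 2.38 and 1.48 CPM in the mutant, against 8.16 and 13.6 CPM in the wild type. The wild-type libraries differed from each other, yet both were above both mutant libraries. The gene is 315 bases long, and within each group its libraries lay in the order of the short transcripts. With the replicate number as a block, mtl-2 did not pass (adjusted p = 0.160 by edgeR's quasi-likelihood test). The log2 change was -2.45 ± 0.321 (adjusted p = 0.0348), a 5.46-fold lower level in the mutant. With any of the 4 libraries of mutant without cadmium or wild type with cadmium left out, the adjusted p of mtl-2 went above the threshold, up to 0.206, while the log2 change stayed between -2.87 and -2.05. mtl-1, the other metallothionein gene, measured 4.30 and 3.71 CPM in the mutant and 6.20 and 4.74 CPM in the wild type, a log2 change of -0.45 (adjusted p = 0.385, 95% interval -0.85 to -0.06).

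The remaining targets did not pass. cdr-1 measured 2.62 and 1.48 CPM in the mutant and 1.18 and 0.949 CPM in the wild type, a log2 change of 0.96 (95% interval 0.28 to 1.64, adjusted p = 0.267). cdf-2, the exporter that fills zinc stores of intestinal cells, measured 3.36 and 3.22 CPM in the mutant and 2.96 and 3.27 CPM in the wild type, a log2 change of 0.08 (95% interval -0.42 to 0.59). ttm-1 measured 26.1 and 26.9 CPM in the mutant and 26.2 and 26.04 CPM in the wild type, a log2 change of 0.02 (95% interval -0.34 to 0.37). For cdf-2 and ttm-1 the groups overlapped, and the intervals exclude a change of 1 log2 unit in either direction.

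**Figure D3:**
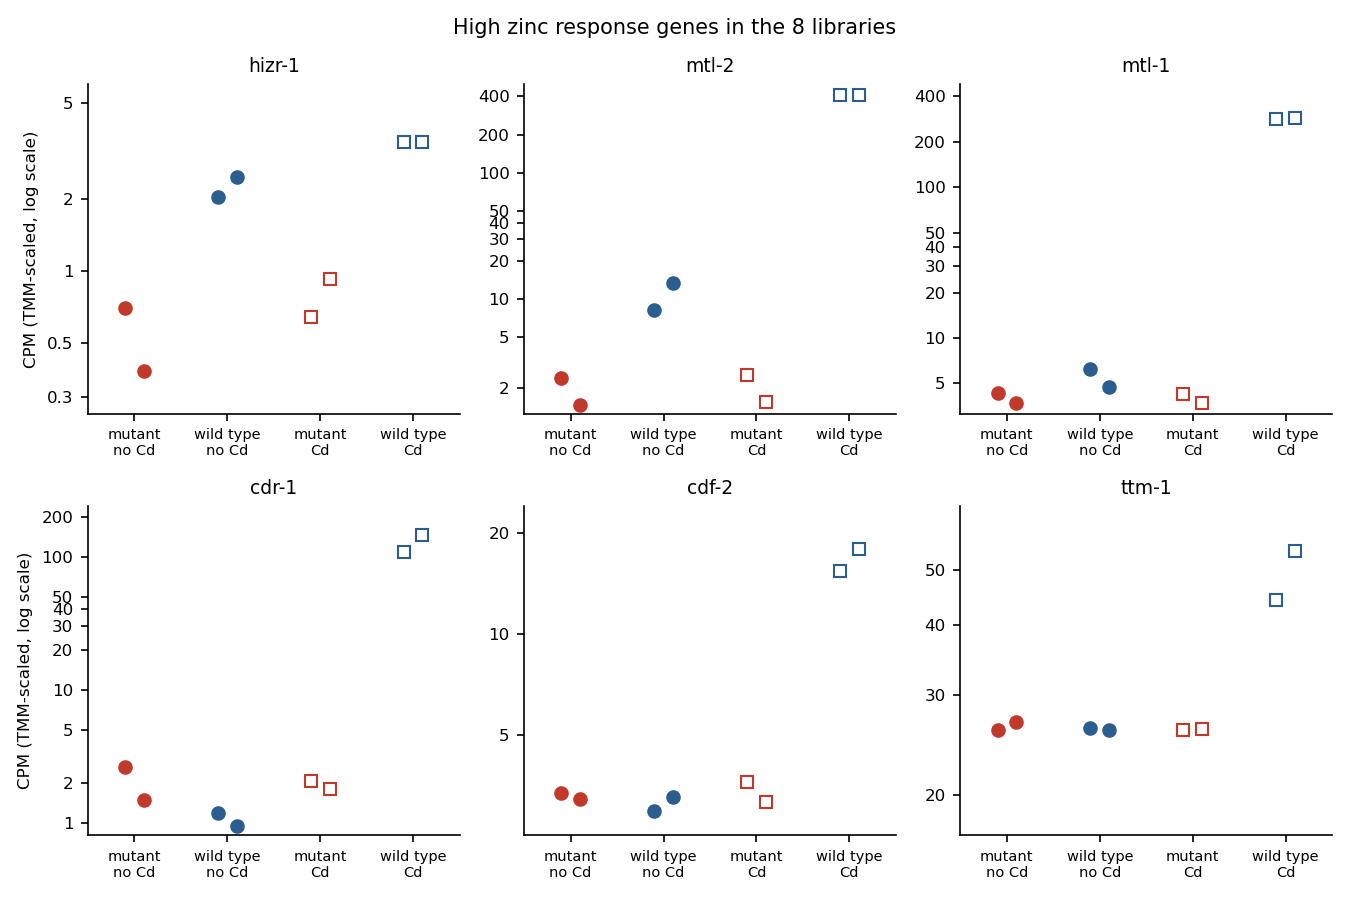
CPM (log scale) of hizr-1 and 5 high zinc response genes in the 8 libraries, with the mutant (red) left of the wild type (blue) in each condition; filled circles are libraries without cadmium and open squares libraries with cadmium. Without cadmium the groups are set apart for hizr-1 (0.703 and 0.382 CPM in the mutant, 2.03 and 2.47 CPM in the wild type), mtl-2 and mtl-1. These are lower in the mutant, while cdr-1, also set apart, is higher in the mutant. The groups overlap for cdf-2 and ttm-1.

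Other genes of zinc handling stayed below the threshold. Of the 5 tested exporters of the CDF family, 0 passed and 0 had an unadjusted p under 0.05, with log2 changes of -0.14 to 0.08 for cdf-1, sur-7, toc-1, cdf-2 and ttm-1. Of the 14 tested ZIP importers, which bring zinc into the cytoplasm, 0 passed and 2 were higher at an unadjusted p under 0.05, zipt-17 and zipt-13. zipt-17 measured 1.02 and 1.75 CPM in the mutant and 0.499 and 0.711 CPM in the wild type, a log2 change of 1.18 (adjusted p = 0.373). For the remaining 13 ZIP genes the values ran between -0.53 (zipt-2.3) and 0.40 (zipt-13) on the log2 scale. Of the 6 tested genes of the CDR family, 0 passed, with log2 changes of -0.49 (cdr-4) to 0.96 (cdr-1). A list of 10 intestinal regulators and partners of nuclear receptors, elt-2, elt-7, mdt-15, sbp-1, pqm-1, nhr-28, nhr-49, nhr-66, nhr-80 and nhr-86, had log2 changes of -0.62 (pqm-1) to 0.50 (elt-2), and 0 passed. The intestinal GATA factor gene elt-2 measured 13.7 and 17.2 CPM in the mutant and 11.8 and 10.0 CPM in the wild type (adjusted p = 0.397).

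The same genotype comparison was also made in the 4 libraries with cadmium, which share no library with those above. Both contrasts come from 1 fit, with 1 spread per gene estimated over all 8 libraries. Passing in both is therefore not an independent check. With cadmium 606 genes rose in the mutant, 3.83% of those tested, and 68 fell, 0.430%. Of the 20 genes, 17 also passed with cadmium in the same direction, 13 higher and 4 lower. In 19 of the 20 the groups did not overlap with cadmium, beside 36.5% of all tested genes. For 13 of the 20 the difference was smaller with cadmium than without. The 20 were selected by their difference without cadmium, so that count does not test an effect of cadmium. The 3 genes that did not pass there were cth-1, argk-1 and sdz-30. The count of genes passing in both conditions, 17 here, was 4 without wild-type library 1 with cadmium, 387 without wild-type library 2 without cadmium, and 7 to 18 without any 1 of the other 6 libraries. With a covariate for sperm genes it was 10, in a fit that called 111 genes higher and 183 lower without cadmium.

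Examples of genes that passed in both conditions are clec-52, pud-3 and gst-24. clec-52 measured 32.96 and 28.1 CPM in the mutant and 8.44 and 5.37 CPM in the wild type with cadmium, a log2 change of 2.14 beside 2.26 without. pud-3 measured 238 and 194 CPM in the mutant and 78.7 and 65.9 CPM in the wild type with cadmium, and its log2 change was 1.58 ± 0.192 there, below 2.72 ± 0.200 without cadmium. The mutant levels of pud-3 overlapped between conditions and the wild-type levels were higher with cadmium; the difference between the 2 changes did not pass (-1.14 ± 0.267, adjusted p = 0.557). gst-24 was alike, with a log2 change of 1.04 ± 0.219 with cadmium and 2.09 ± 0.230 without, and its difference did not pass either.

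For cth-1 the genotype difference itself differed between the conditions. With cadmium it measured 26.5 and 29.2 CPM in the mutant and 28.8 and 26.9 CPM in the wild type, so the groups overlapped and the log2 change was 0.00 (95% interval -0.38 to 0.38). The log2 change with cadmium minus that without was 1.70 ± 0.249 (adjusted p = 0.0203). Its neighbour argk-1 measured 4.18 and 5.31 CPM in the mutant and 8.44 and 6.001 CPM in the wild type with cadmium, a log2 change of -0.62 (95% interval -1.26 to 0.03). For argk-1 the difference between conditions was 2.46 ± 0.434, and it missed the threshold (adjusted p = 0.0898). The opposite held for mtl-2, at 2.51 and 1.55 CPM in the mutant and 411 and 414 CPM in the wild type with cadmium. The change in mtl-2 with cadmium minus that without was -5.17 ± 0.461 (adjusted p = 0.00388). cth-1 and mtl-2 were the 2 of the 20 genes whose difference between conditions passed, beside 0.114% of all tested genes.

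**Figure D4:**
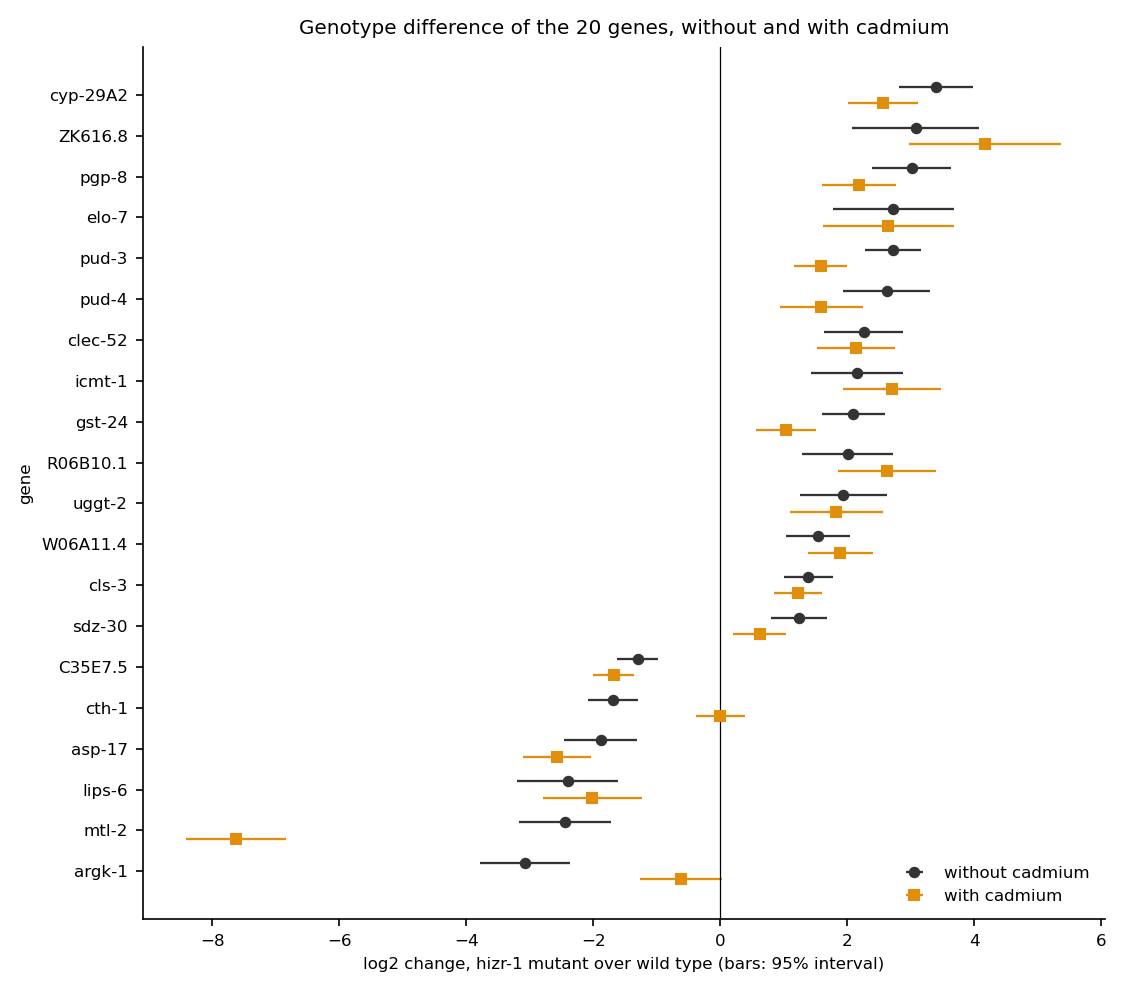
Log2 change of the 20 genes, hizr-1 mutant over wild type, without cadmium (black circles) and with cadmium (orange squares); bars are 95% intervals. The 2 sets come from different libraries; cth-1 is at -1.70 without cadmium and at 0.00 with it, and mtl-2 at -2.45 without and at -7.62 with cadmium.

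By position, the 20 genes lay on all 6 nuclear chromosomes, with 7 on V, 4 each on I and IV, 2 each on II and III, and 1 on X. Of the 40 nearest tested protein-coding genes or pseudogenes on either side of them, 4 had passed. These are the 2 adjacent pairs, pud-3 with pud-4 and cth-1 with argk-1. Genes that were not tested were skipped, and the gap reached 94605 bases, between pud-4 and C13B7.6. spp-7, of the saposin-like antimicrobial family, lies 681 bases from ZK616.8 and had 22 and 14 counts in the mutant against 2 and 2 counts in the wild type. Its log2 change was 3.24 ± 0.625 (adjusted p = 0.0942), which missed the threshold. Around hizr-1, within 1 Mb on either side, 273 genes were tested. Of these, 1 passed, pgp-8, whose gene lies 453.9 kb from hizr-1. In that window 13 genes (4.76%) had an unadjusted p under 0.05, beside 10.8% of all tested genes. Variants linked to am286 on chromosome X were not analysed here.

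Beyond the genes that passed, several lists leaned one way with at most 1 called member. UDP-glycosyltransferase genes encode enzymes that attach sugars to foreign compounds and steroids. Of 62 tested, 0 passed, and 15 were higher and 0 lower at an unadjusted p under 0.05. A log2 change above 0 was seen in 48, beside 7533 of all 15818 tested genes. The median log2 change was 0.23, and with cadmium it was -0.03, with 0 genes higher and 2 lower past the adjusted threshold. As an example chosen after its values were seen, ugt-43 had a log2 change of 1.17, and of -0.002 with cadmium. Of 77 genes of fat desaturation, elongation and oxidation, elo-7 passed, 17 were higher and 2 lower unadjusted, and the median was 0.15. In the F-box, MATH and BTB domain families, which supply substrate adaptors for protein degradation, 29 of 277 were higher and 3 lower unadjusted, and the median was 0.16. With cadmium the medians of the fat and F-box lists were 0.03 and 0.07. Of all tested genes 7.20% were higher and 3.58% lower unadjusted, and counts of this kind are read beside those shares. Nuclear hormone receptor genes did not lean either way in their log2 changes: of 185 tested, 96 were above 0, the median was 0.01, and 1 was higher and 6 (3.24%) lower unadjusted. The mutated gene hizr-1 is itself among the 6. Of 119 neuropeptide and insulin-like genes 84 were below 0, beside 8285 of all 15818, and the median was -0.16. Unadjusted, 1 (0.840%) was higher and 5 (4.20%) lower, among them nlp-29, nlp-30 and nlp-31, which are also in the infection response list below. The genes are short (median 519 bases). Their list median was 1.68 and 1.03 log2 CPM in mutant libraries 1 and 2, and 1.69 and 1.77 log2 CPM in wild-type libraries 1 and 2.

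Stress and immune lists held no called gene apart from those above. Of 6 tested inducible heat shock genes, 4 (66.7%) were higher at an unadjusted p under 0.05, beside 7.20% of all tested genes. These were hsp-16.2, hsp-16.41, F44E5.5 and hsp-70, and the median log2 change of the list was 0.80. With cadmium the list median was of the opposite sign, -0.57, and 0 of its genes passed there. hsp-70 measured 74.6 and 68.7 CPM in the mutant and 44.3 and 42.3 CPM in the wild type, a log2 change of 0.73 (adjusted p = 0.174). The near-identical copies hsp-16.1 and hsp-16.48 had 0 or 1 counts and were not tested. Of 14 chaperone genes of the endoplasmic reticulum, 0 were higher and 3 lower unadjusted, with a median of -0.15. Of 24 antioxidant genes 0 were past even the unadjusted threshold, and of 55 infection response genes 3 were higher and 4 lower unadjusted. The 3 higher were spp-7, irg-5 and irg-4, with log2 changes of 3.24, 0.77 and 0.62. The 4 lower were cnc-4, at -0.87, and the antimicrobial peptide genes nlp-29, nlp-30 and nlp-31. These last had log2 changes of -1.20, -1.29 and -1.19 and did not pass (adjusted p of 0.247, 0.161 and 0.343 by edgeR's quasi-likelihood test). nlp-29, nlp-31 and cnc-4 are shorter than 500 bases, the class in which libraries of 1 group differed. nlp-29 measured 18.7 and 9.34 CPM in the mutant and 32.5 and 32.1 CPM in the wild type.

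No gene of the sperm lists passed, and most had a log2 change above 0, beside 7533 of all 15818 tested genes. Of 30 tested spe and fer genes of spermatogenesis, 0 passed, 10 (33.3%) were higher and 0 lower at an unadjusted p under 0.05, and 27 had a log2 change above 0. Their median log2 change was 0.94. The list median was 2.39 and 1.86 log2 CPM in the mutant, against 0.776 and 1.26 log2 CPM in the wild type, so the groups did not overlap. spe-4 measured 5.55 and 6.01 CPM in the mutant and 2.10 and 2.51 CPM in the wild type, a log2 change of 1.33 (adjusted p = 0.0942). Of 57 major sperm protein and small sperm genes, 51 had a log2 change above 0 and the median was 0.77. Of these 57, 2 (3.51%) were higher unadjusted, below the 7.20% of all tested genes. Their list median was 3.19 and 1.82 log2 CPM in the mutant and 0.558 and 2.46 log2 CPM in the wild type, which overlap. Summed over those genes, the level was 644 and 294 CPM in the mutant and 147 and 419 CPM in the wild type. With cadmium, 13 of the 30 spe and fer genes and 8 of the 57 sperm genes rose in the mutant, beside 3.83% of all tested genes. In RNA of whole animals, more cells of a type and more RNA per cell cannot be told apart.

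Genes of oocytes and yolk had log2 changes below 0, as had 8285 of all 15818 tested genes, and 0 passed. Of 23 oocyte and eggshell genes, all had a log2 change below 0 and the median was -0.25. Of these, 1 (mex-5) was lower unadjusted, which is 4.35% of the list beside 3.58% of all tested genes. Of 6 vitellogenin genes, which encode yolk proteins made by the intestine of adults, all had a log2 change below 0, 1 (vit-1) was lower unadjusted and the median was -0.29. The list median of vitellogenins was 11.7 and 11.6 log2 CPM in the mutant and 12.2 and 11.96 log2 CPM in the wild type. The marker lists of intestine, muscle, neurons and hypodermis had medians of -0.03, -0.12, -0.05 and -0.09. Histones (33 tested) and ribosomal proteins (84 tested) had 0 genes past the unadjusted threshold, and their medians of -0.32 and -0.17 come from libraries that differ within each group.

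**Figure D5:**
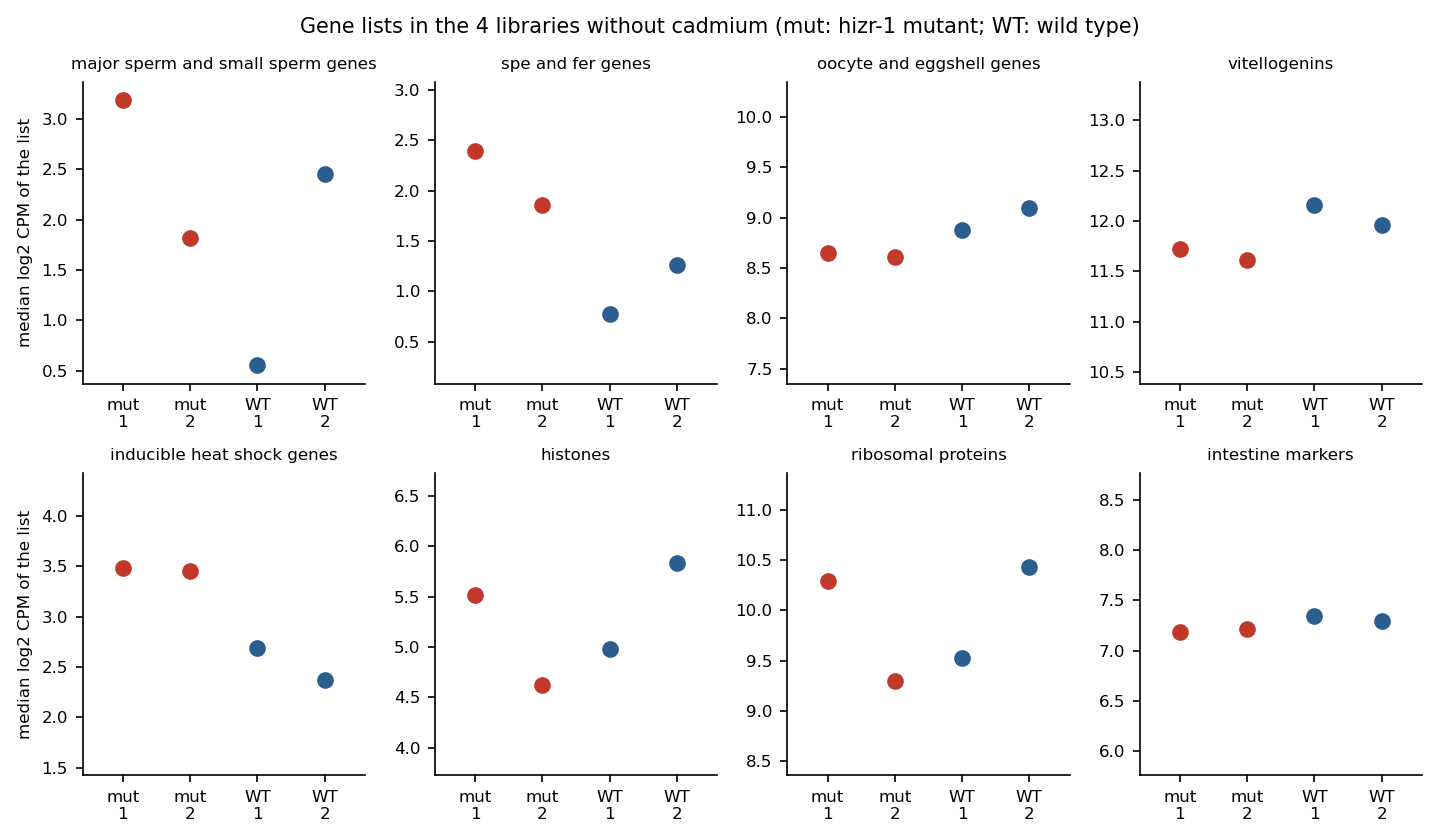
Median log2 CPM of 8 gene lists in each library without cadmium, mutant libraries (red) left of wild-type libraries (blue); every panel spans 3 log2 units. The spe and fer list separates the groups (2.39 and 1.86 in the mutant, 0.776 and 1.26 in the wild type), while for histones and ribosomal proteins library 2 is below library 1 in the mutant and above it in the wild type.

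The median of the major sperm protein list was also carried into the fit. It overlapped between the genotypes without cadmium, as given above, and with cadmium was 2.50 and 2.64 log2 CPM in the mutant against -0.452 and 0.682 log2 CPM in the wild type. The spe and fer list, whose groups did not overlap, was not used as a covariate. With the major sperm protein median as a covariate, 19 of the 20 genes passed, 13 higher and 6 lower. pud-4 did not (adjusted p = 0.0551 by edgeR's quasi-likelihood test). The number of genes called in that fit was 111 higher and 183 lower. Among these were 13 ribosomal protein and 10 histone genes, all lower. The genes behind the covariate are short (median 438 bases), and without cadmium their median lay in the order of the short transcripts. In that fit the spe and fer list kept a median log2 change of 0.46, with 3 genes higher. How far the covariate accounts for sperm content was not tested. Over the 8 libraries the level of R06B10.1, icmt-1 and ZK616.8 followed the sperm median with Pearson correlations of 0.873, 0.867 and 0.864, the highest of the 20 genes. The lowest were -0.794 for C35E7.5, -0.79 for asp-17 and -0.789 for mtl-2, and cth-1 had -0.214. These correlations mix genotype and cadmium, so they are given as a description.

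The 20 genes differed in how far each library decided them. When each of the 8 libraries was left out in turn, pud-3, cyp-29A2, pgp-8, cth-1, argk-1, gst-24, C35E7.5, cls-3 and clec-52 passed all 8 times. The other 11 were lost at least once. pud-4 was lost without either wild-type library with cadmium (adjusted p up to 0.0912). asp-17 was lost, with adjusted p up to 0.206, without the same 4 libraries as mtl-2. ZK616.8, W06A11.4 and lips-6 were each lost in 5 of 8 fits, elo-7 in 6, and icmt-1, uggt-2, sdz-30 and R06B10.1 in 7. No log2 change of these 11 genes changed sign, and the lowest absolute value among these fits was 1.20, for sdz-30. The genes were selected on these same libraries, and their groups did not overlap, so the kept signs do not test the changes. Leaving out wild-type library 2 without cadmium raised the calls to 413 higher and 36 lower, and leaving out wild-type library 1 without cadmium gave 12 higher and 11 lower. Leaving out any 1 of the other 6 libraries gave 6 to 8 higher and 3 to 5 lower.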

How the data were processed

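RNA of whole C. elegans was extracted with Trizol and columns and depleted of ribosomal RNA with Ribo-Zero, per the labels' protocols. Reads were processed with STAR 2.0.4b, Subread and featureCounts 1.45 on build WBcel235, per the submitters' processing notes. Strand setting, annotation release and the treatment of multiply mapped reads are not given in the sources used here. Per the file headers, the deposited count column gives raw read counts for each gene. The deposited CPM column is the authors' count scaled to the library total, and the deposited RPKM column is the authors' CPM per kilobase of gene length, per the file headers. Both were recomputed from the counts for all 46726 genes of each library within a tolerance of 1e-06. All columns with per-sample values were assigned to a sample.

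Only the counts were tested. Contrasts were tested 2-sided with the quasi-likelihood F test of edgeR 4.0.16 in R 4.3.3, with TMM scaling, robust estimation and 4 group means over all 8 libraries. filterByExpr (minimum count 10, minimum total 15) left 15818 genes. Adjusted p is Benjamini-Hochberg over these genes, and 0.05 is the threshold for writing that a gene rose or fell. The SE of a log2 change is its size divided by the square root of F, with 6.14 to 12.3 degrees of freedom. The difference between conditions is the genotype contrast with cadmium minus that without, in the same fit. CPM in the text uses TMM-scaled library sizes, per library. RPKM was not tested. Library totals ran from 17681352 to 29586507 counts, and 3 counts, the most that a count of 0 allows, are 0.0964 to 0.164 CPM in these libraries. The floor takes in counting error alone, since reads lack molecular identifiers and are not independent. Every pair of libraries differed beyond sampling noise. Chi-square divided by its degrees of freedom was lowest, at 9.25, between mutant library 2 with cadmium and mutant library 1 without. Without cadmium it was 50.7 between the mutant libraries and 60.6 between the wild-type libraries. With wild-type libraries 1 and 2 it was 81.3 and 16.1 for mutant library 1, and 49.95 and 60.1 for mutant library 2. By this measure mutant library 1 was closer to wild-type library 2 than to mutant library 2.

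Of the gene identifiers, 46364 were in the Ensembl 115 annotation and 61.7% of these had the same coordinates, so the authors used a different release. Coordinates are as in the files, and pseudogenes without a symbol go by their transcript names. The comparison and the gene lists were chosen with earlier results of these data known. Genes were named by rule: hizr-1; the high zinc response, CDF, ZIP and partner lists; of the genes past the threshold with groups that do not overlap, the 15 of smallest p in each direction; up to 4 passing members of each list; and the 10 largest changes that also passed with cadmium. Genes named for an unadjusted p, and the flanking genes, were added after their values were seen. Lists are described by counts and medians. The sperm covariate is the mean-centred median log2 CPM of the major sperm protein list. Alternatives were DESeq2 1.42.0, limma-voom (limma 3.58.1), other size factors and filters, the 4 libraries alone, no robust estimation, the sperm covariate, a replicate term and leaving out each library.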

Additional observations from a re-analysis of the deposited data

Results flagged for a closer look

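The genotype difference with cadmium differed from that without it, by the interaction term of edgeR's quasi-likelihood test adjusted over all genes, for 5 of the genes described. cth-1, which fell in the mutant without cadmium, had a log2 difference with cadmium minus without of 1.695 (SE 0.249, adjusted p = 0.0203). For the metallothionein genes it was -5.175 in mtl-2 (adjusted p = 0.00388) and -5.708 in mtl-1 (adjusted p = 3.92e-07). For cdr-1 it was -6.976 (adjusted p = 5.87e-06) and for cdf-2 -2.367 (adjusted p = 0.0134). Of these 5, mtl-2 and cth-1 had passed without cadmium. The adjacent argk-1 had a larger log2 value than cth-1, 2.46, with an adjusted p of 0.0898.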

How the results depend on the processing

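Against 14 higher and 6 lower genes, DESeq2 gave 79 and 18, no filter on low counts 511 and 119, the 4 libraries alone 0 and 0, the sperm covariate 111 and 183, and size factors by RLE, a filter of at least 1 CPM, limma-voom and no robust estimation 12 to 14 and 6. The number of genes each setting called without cadmium that also passed with cadmium, 17 as reported, was 75 with DESeq2, 448 without the filter and 10 with the sperm covariate; the 4 libraries alone give no value. With the replicate number as a block the counts were 7 and 5, with 10 also passing with cadmium and 11 of the 20 among the calls. Deviations with the same number correlated at -0.431 (mutant with wild type, without cadmium) to 0.42 (wild type with and without cadmium) over the 6 pairs of groups, so the samples are taken to share only a number. With the numbers of the mutant without cadmium exchanged, a choice made after seeing the data, the counts were 146 and 19, with 143 also passing. Leaving out 1 library each gave 6 to 413 higher, 3 to 36 lower, and 4 to 387 also passing; the cause was not tested. Of 360 values of the 20 genes' log2 changes under these settings, 268 kept their side of the threshold, 92 lost it and 0 changed sign. The 20 genes were selected for passing in these same libraries, so their kept signs do not test the changes. Of 792 list medians, 50 moved by more than their spread. At 2 libraries a group, a missing call does not show that levels are alike, and elo-7, lips-6 and uggt-2 among the 20, like hizr-1, cdr-1 and spp-7, were under 4 CPM in each library without cadmium and rest on few counts.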

Other observations

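Genes of early embryonic transcription, a list of 10 tested genes, had a median log2 change of 0.27 in the mutant over the wild type without cadmium, and 2 of them were higher at an unadjusted p under 0.05. vet-6 measured 10.08 and 12.1 CPM in the mutant and 5.06 and 6.45 CPM in the wild type, and pes-10, an early zygotic transcript, 3.71 and 3.55 CPM in the mutant and 1.43 and 2.18 CPM in the wild type. Of 13 tested iron, haem and manganese genes 0 passed, and the haem transporter gene hrg-1 measured 11.7 and 10.0 CPM in the mutant and 7.09 and 7.68 CPM in the wild type, a log2 change of 0.56 (adjusted p = 0.353 by edgeR's quasi-likelihood test). Of 146 tested cuticle collagen genes 0 passed, 4 were higher and 3 lower unadjusted, and the median was 0.05. Of 33 proteasome subunit genes 0 were past the unadjusted threshold, with log2 changes of -0.22 to 0.06. Of the genes of the mitochondrial genome, 12 were tested, 0 passed, and the median was 0.10.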
